A study of Mus musculus with 18 samples.

Results

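The genes described here act when replication forks stall or DNA breaks. They are 49 listed genes of the ATR checkpoint, break sensing and signalling, homologous recombination, the Fanconi anemia pathway, the helicases and junction nucleases, and end joining. They were taken by name from the list, and not for their values. Each was read by its brightest probe set, as were all 18195 genes of the array. Of the 49, 47 were found and 45 were bright enough to be tested, among 10917 genes in all. Bard1 (mean log2 signal 3.29) and Rad51c (4.17) lay below the dimmest gene tested (4.74), and Rbbp8 is not analysed here. The listed name Claspn matched no symbol. The array carries claspin as Clspn, which was measured and is described with the ATR checkpoint but is not in the counts of 45.

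The RNA came from TKO, a mouse cell line labelled as telomere dysfunctional, grown in culture and hybridised to 18 Affymetrix arrays. Part of the cells carried p53ER, in which the tumour suppressor p53 is fused to an estrogen receptor. The fusion is built to work once 4-hydroxytamoxifen (4-OHT) is present, though p53 target genes also read higher in p53ER cells without it, as given below. The rest were uninfected. The 6 groups were uninfected and p53ER cells at 0 h, after 4 h with vehicle and after 4 h with 100 nM 4-OHT, with 3 arrays each. The study asked which genes are potential direct targets of p53 at 4 h, and its title concerns ZNF365, fragile sites and telomeres. No group received the infection alone, as far as the labels say, so infection and fusion cannot be told apart. Whether replicates came from different cultures is not said, so the p-values reflect only how these arrays vary, which may be technical variation. Levels are given as log2 of the scaled signal plus an offset, and differences are on that scale, which understates changes of dim genes.

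When a replication fork stalls, single-stranded DNA coated by the RPA complex recruits the kinase ATR through its partner ATRIP, and ATR activates the kinase CHK1 to hold the cell cycle. At a broken end the MRE11-RAD50-NBN complex recruits the kinase ATM, which marks chromatin through the histone H2AX and activates CHK2. Breaks are rejoined by homologous recombination or by end joining, the Fanconi anemia proteins clear crosslinks, and unprotected telomeres are known to engage the same machinery.

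Several results below are touched by differences between arrays that the groups do not explain. Before scaling, the 2% trimmed mean signal ran from 47.5 to 148. Uninfected 0 h replicate 2, p53ER vehicle replicate 1 and p53ER 0 h replicate 3 stood apart, with median correlations with the other arrays of 0.899, 0.906 and 0.919. Replicate 3 of every group also differed from replicates 1 and 2. Of the cell type markers, all 10 mesenchymal genes were bright enough to test, with Vim at 13.50 to 14.35. The defining genes Cdh1 (epithelial), Ptprc and Itgam (blood) and Pecam1 (endothelial) were near the floor, with medians of 2.69, 3.38, 2.63 and 2.82. Other markers of those lists were bright enough to test, namely Epcam (6.97), Krt8 (5.60), Krt5 (4.97), Csf1r (6.27), Cd74 (5.14) and Kdr (5.94), so these lists were not at the floor throughout.

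**Figure D1:**
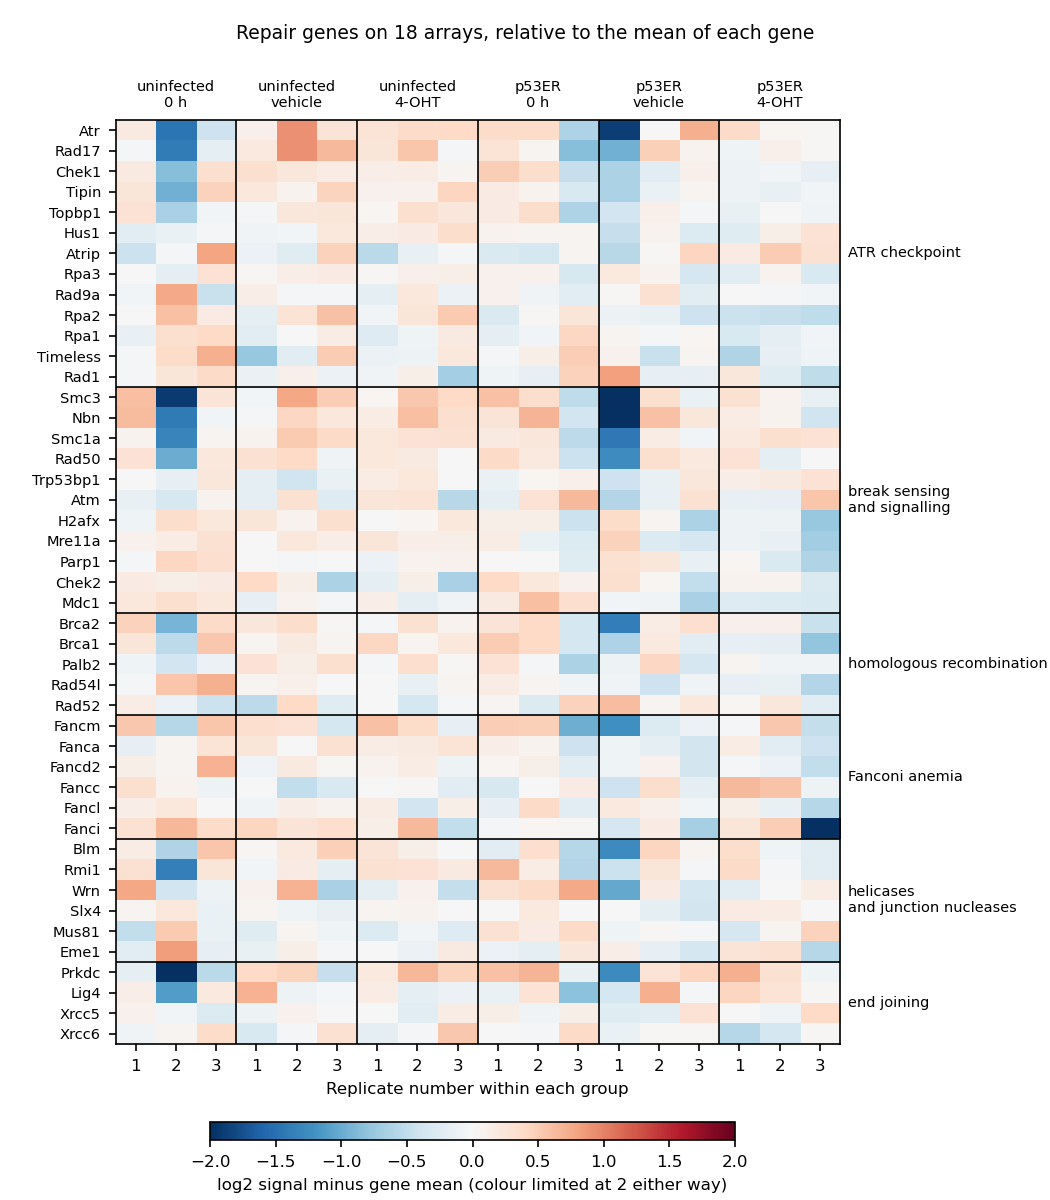
Each row is 1 of the 45 tested genes and each column 1 array; colour is the log2 signal minus that gene's mean over the 18 arrays, limited at 2 either way. Uninfected 0 h replicate 2 and p53ER vehicle replicate 1 show a block of low genes and p53ER 0 h replicate 3 a fainter one.

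The main comparison set p53ER cells with 4-OHT against p53ER cells with vehicle. None of the 45 repair genes passed the threshold (limma, adjusted p under 0.05) in either direction. Their smallest adjusted p was 0.998, and of all genes tested 0.0183% passed, namely Mdm2 and Pmaip1. The p53 response itself was present on the same arrays. Mdm2, the ubiquitin ligase that limits p53, read 10.21, 10.09 and 11.26 with 4-OHT against 6.77, 7.30 and 8.73 with vehicle. Its groups did not overlap (log2 change +2.92, SE 0.41, limma adjusted p = 0.0329). The 6 p53 activity genes (Mdm2, Pmaip1, Cdkn1a, Phlda3, Ccng1 and Trp53inp1) were all higher without overlap, with changes of +1.44 to +3.38. Of these 6 only 2 passed, so a gene that did not pass is not shown to be unchanged. For the repair genes the values ran from -0.41 for Parp1 to +0.71 for Smc1a, with 27 of 45 positive (60%, against 48.1% of all genes). Their median was +0.12, against -0.01 over all genes. At an unadjusted p under 0.05 there was 1 repair gene, a share of 2.22% against 3.22% of all genes. For 33 of the 45 the 95% interval lay within 2-fold either way, and for the other 12 it reached beyond 2-fold, so a 2-fold difference lay within the interval. In bulk RNA, a different mix of cells and less RNA per cell cannot be told apart.

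Without p53ER vehicle replicate 1 the balance of signs turned. Then 15 of 45 repair genes were positive and their median was -0.06, while the median over all genes stayed at -0.01. No repair gene passed with or without that array. With the replicate number as a block, 0 repair genes and 0.0733% of all genes passed.

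**Figure D2:**
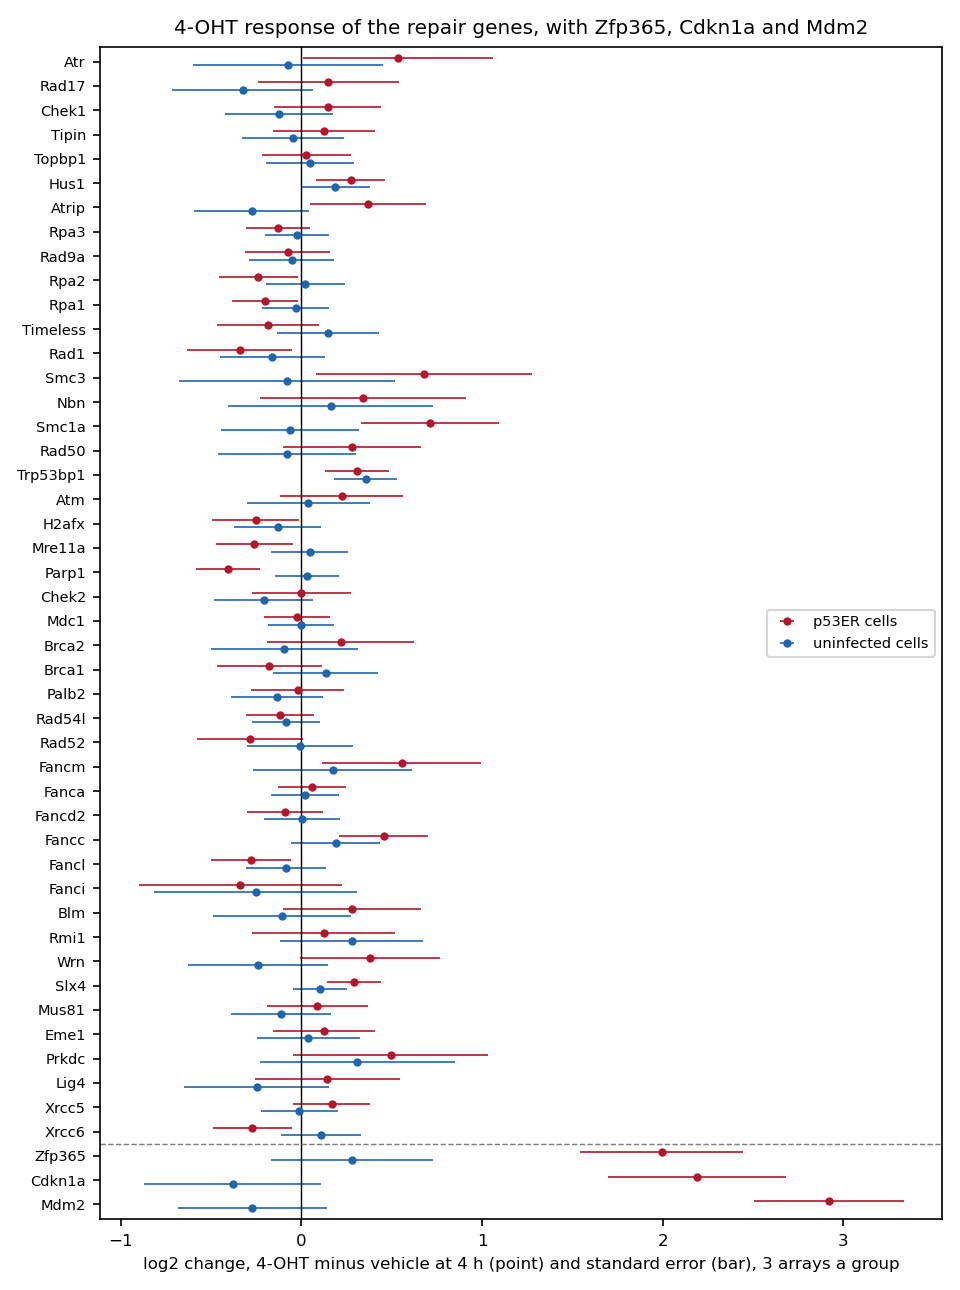
Points give the log2 change with 4-OHT against vehicle at 4 h in p53ER cells (red) and uninfected cells (blue), with bars of 1 standard error from the fit, 3 arrays a group. The repair genes lie between -0.41 and +0.71 in p53ER cells, and Mdm2 (+2.92), Cdkn1a (+2.19) and Zfp365 lie to the right of all of them.

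In the ATR checkpoint, 0 of 13 tested genes passed and 7 were positive, with a median of +0.03. Atr, the kinase itself, had the largest difference of the group. It read 4.32, 6.21 and 6.92 with vehicle and 6.59, 6.24 and 6.22 with 4-OHT. The vehicle arrays spanned the 4-OHT arrays, and the low one was replicate 1. The difference was +0.54 (SE 0.53, limma adjusted p = 0.998), and -0.21 without that array. Its dimmer probe sets differed by +0.65 and, near the floor, +0.25.

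The RPA subunits Rpa1 and Rpa2, which bind single-stranded DNA, both had every 4-OHT array below every vehicle array, as did 3.98% of all genes. Rpa1 read 10.84, 10.94 and 11.08 with 4-OHT against 11.20, 11.10 and 11.17 with vehicle (-0.20, SE 0.18). Rpa2 read 6.99, 6.97 and 6.92 against 7.31, 7.27 and 7.01 (-0.24, SE 0.22). Both differences were close to their standard errors, and the other probe sets gave -0.05 for Rpa1 and -0.07 for Rpa2. Rpa3, the small subunit, differed by -0.13. Atrip, the partner of ATR, differed by +0.37 (SE 0.32). Of the checkpoint clamp, Hus1 differed by +0.27, Rad9a by -0.07 and Rad1 by -0.34 (SE 0.29). The groups overlapped for Hus1, and its second probe set differed by -0.40. The clamp loader Rad17 stood at +0.15, the effector kinase Chek1 at +0.15 (SE 0.30) and the ATR activator Topbp1 at +0.03. The other Chek1 probe sets differed by +0.28, -0.67, +0.29 and -0.20 from the brightest to the dimmest. A second, dimmer Topbp1 probe set differed by -1.14. Timeless and Tipin, which protect the fork together, differed by -0.18 and +0.13, and a second Timeless probe set by -0.50. Clspn, the adaptor through which ATR reaches CHK1, read 6.89, 6.80 and 6.94 with 4-OHT against 6.47, 7.32 and 7.26 with vehicle, with overlapping groups (-0.14, SE 0.30, limma adjusted p = 0.998).

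Among 11 genes of break sensing and signalling 0 passed and 7 were positive, with a median of +0.22. Smc1a, a subunit of the cohesin ring and a substrate of ATM, had the largest difference of all the repair genes. It read 8.69, 8.81 and 8.78 with 4-OHT and 7.06, 8.64 and 8.44 with vehicle. The groups did not overlap, as in 3.39% of all genes with 4-OHT above, but only vehicle replicate 1 lay far below. The difference was +0.71 (SE 0.38, limma adjusted p = 0.998), and +0.22 without that array. Its other probe sets differed by +0.65 and +0.80. Smc3, the partner of Smc1a in the ring, differed by +0.68 (SE 0.60). Vehicle replicate 1 was again low, at 5.42 against 7.74 and 7.27, and without it the difference was -0.01. A second, dimmer Smc3 probe set differed by +0.06.

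Parp1, which binds DNA nicks and builds poly(ADP-ribose) chains, was the repair gene with an unadjusted p under 0.05. It read 8.20, 7.88 and 7.56 with 4-OHT against 8.47, 8.38 and 8.01 with vehicle. The groups overlapped. The difference was -0.41 (SE 0.18, limma unadjusted p = 0.0355 and adjusted p = 0.998, or 0.907 with the block). In uninfected cells it was +0.03 (SE 0.18). The p53ER value minus the uninfected value came to -0.44 (SE 0.25, limma adjusted p = 1.00). Of the other Parp1 probe sets, the brighter pair differed by -0.43 and -0.28, and the dimmest, near the floor, by +0.76. In uninfected cells the same probe sets differed by +0.12, -0.24 and +0.61. Their p53ER minus uninfected values were -0.55, -0.05 and +0.15, so the contrast between the cell types depends on the probe set.

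The end-binding complex genes Mre11a, Rad50 and Nbn differed by -0.26, +0.28 and +0.34. Without vehicle replicate 1 those values were -0.01, -0.23 and -0.47, and the second Mre11a probe set differed by +0.18. Atm, the kinase that the complex recruits, differed by +0.22, and H2afx, the histone it marks, by -0.25. The mediator Mdc1 stood at -0.03 and the kinase gene Chek2 at 0.00. Trp53bp1, which shields broken ends from resection, differed by +0.31 in p53ER cells and by +0.36 in uninfected cells (SE 0.18 each). Its 5 other probe sets all went the other way in p53ER cells, at -0.49, -0.32, -0.35, -1.30 and -0.52 from the brightest to the dimmest, so the direction depends on the probe set.

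**Figure D3:**
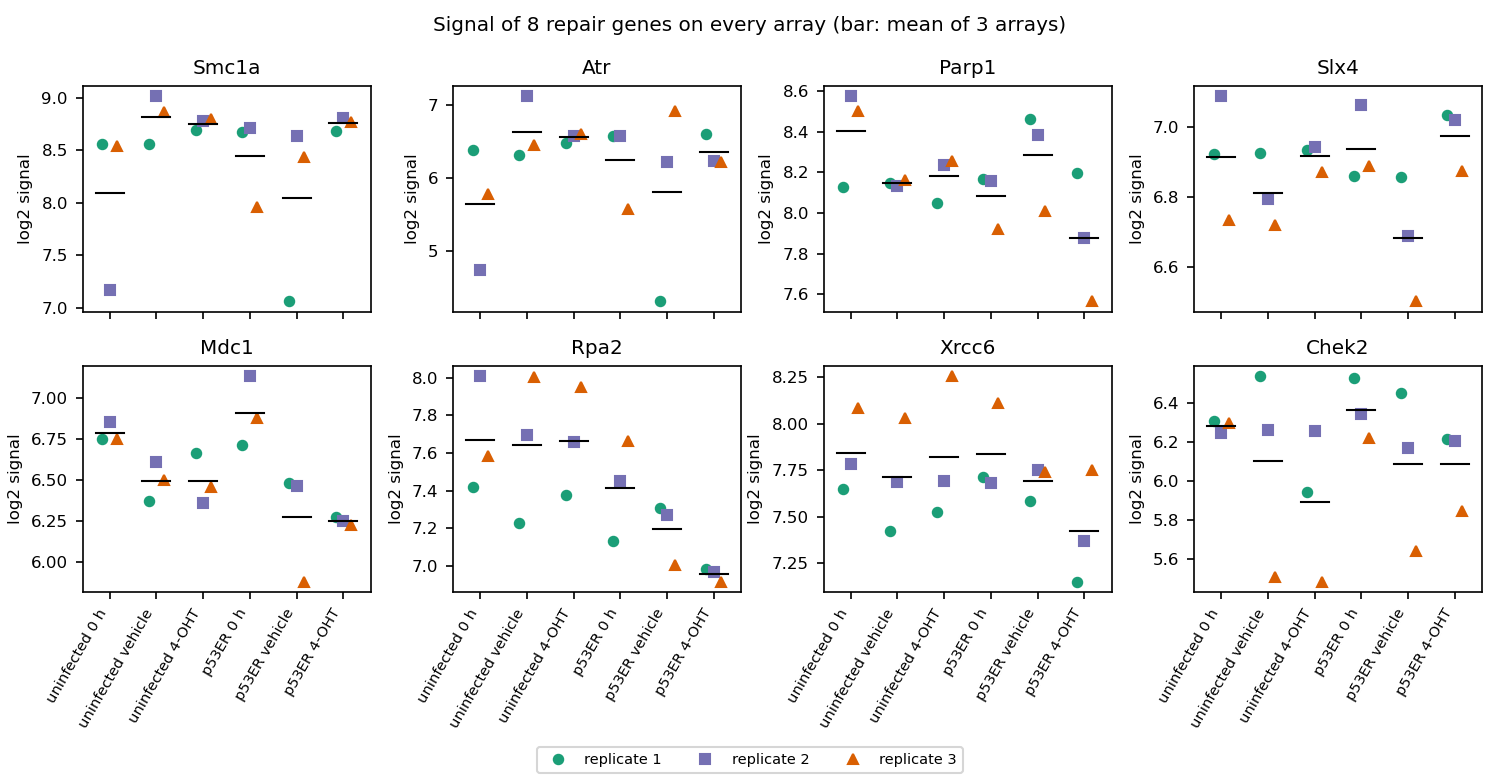
Log2 signal of 8 repair genes on each of the 18 arrays, by group, with symbols for the replicate number and a bar at the mean of 3 arrays; vertical axes differ between genes. Smc1a and Atr each have 1 low array in uninfected 0 h and in p53ER vehicle, Rpa2 is lowest in p53ER cells with 4-OHT, and Xrcc6 is high and Chek2 low in replicate 3 of most groups.

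Homologous recombination had 5 tested genes, of which 0 passed and 1 was positive, with a median of -0.12. Rad52, an annealing protein, had the largest difference. It read 5.30, 5.49 and 5.04 with 4-OHT against 5.89, 5.32 and 5.48 with vehicle, with overlapping groups (-0.28, SE 0.29). Its second probe set differed by +0.21. The positive one was Brca2, a breast cancer susceptibility gene, at +0.22 (SE 0.41), and it stood at -0.32 without vehicle replicate 1. Brca1 differed by -0.18, Palb2, which joins the BRCA proteins, by -0.02 and the translocase gene Rad54l by -0.12. The other Rad54l probe sets, all dimmer than the dimmest gene tested, differed by +0.43, +1.30 (SE 0.39) and, near the floor, -0.06. The direction for Rad54l thus depends on the probe set.

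For the Fanconi anemia pathway 0 of 6 genes passed, 3 were positive and the median was -0.01. Fancm, which brings the core complex to the fork, read 5.60, 6.16 and 5.15 with 4-OHT against 4.39, 5.35 and 5.51 with vehicle. The groups overlapped (+0.55, SE 0.44), and without vehicle replicate 1 the difference was +0.21. Its other probe sets differed by +0.57 and -0.21. In the core complex, Fancc differed by +0.46 (SE 0.25), but its other probe sets differed by -0.22 and -0.51. Fanca differed by +0.06 and the ubiquitin ligase gene Fancl by -0.28. Of the pair that the ligase modifies, Fancd2 differed by -0.09 and Fanci by -0.34 (SE 0.56). The Fanci mean rested on p53ER 4-OHT replicate 3, at 3.86 against 6.68 and 6.94 on the other arrays of its group, and no array of the other groups lay below 5.77. A second, dim Fanci probe set differed by +0.68. The other Fancd2 probe sets differed by 0.00, +0.97 and -0.16 from the brightest to the dimmest.

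All 6 helicase and junction nuclease genes were positive (48.1% of all genes were) and 0 passed, with a median of +0.20. Against p53ER cells at 0 h, 3 of the 6 were positive with 4-OHT (median +0.01) and 0 with vehicle (median -0.20). Wrn, the Werner syndrome helicase, read 4.86, 5.05 and 5.21 with 4-OHT against 4.03, 5.22 and 4.72 with vehicle. It had the largest difference of the group (+0.38, SE 0.39), and +0.07 without vehicle replicate 1. Slx4, the scaffold of structure-specific nucleases, had less spread. It read 7.03, 7.02 and 6.87 with 4-OHT, all above the vehicle arrays at 6.86, 6.69 and 6.50. The difference was +0.29 (SE 0.15, limma adjusted p = 0.998), and +0.38 without vehicle replicate 1. The Slx4 mean in p53ER cells was 6.98 with 4-OHT and 6.94 at 0 h. Blm and Rmi1, which unlink joined chromatids together, differed by +0.28 and +0.12, or -0.22 and -0.06 without that array. Mus81 and Eme1, which form a junction nuclease, stood at +0.09 and +0.13.

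End joining had 4 tested genes, of which 0 passed and 3 were positive, with a median of +0.16. Prkdc, the catalytic subunit of the DNA-dependent kinase, read 5.71, 5.31 and 4.91 with 4-OHT against 3.73, 5.27 and 5.43 with vehicle. The groups overlapped, and the low array was again vehicle replicate 1 (+0.50, SE 0.54, or -0.045 without it). The Ku subunits Xrcc5 and Xrcc6 differed by +0.17 and -0.27, and the ligase gene Lig4 by +0.14.

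A list of 53 other repair genes, 49 of them on the array and 43 bright enough to test, was set beside them in this comparison. None passed with limma, 0 had an unadjusted p under 0.05, 23 were positive and the median was +0.02. The largest values were those of the cohesin gene Stag1 (+0.73, SE 0.49), the fork remodeler Hltf (+0.72, SE 0.50), the Fanconi gene Fancg (-0.52, SE 0.26) and the recombination cofactor Psmc3ip (-0.40, SE 0.24).

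The low block seen on the arrays that stood apart held many of these genes. Set against the mean of the 15 other arrays, 11 of 45 repair genes (24.4%) were lower by more than 1 log2 unit on uninfected 0 h replicate 2, against 9.02% of all genes. On p53ER vehicle replicate 1 there were also 11 (24.4%), against 8.52%. On p53ER 0 h replicate 3 there were 2 (4.44%), against 4.45%. No repair gene was higher by more than 1 on any of the 3, where few genes of any kind were. The shares of all genes were 1.34%, 0.824% and 1.81% in the same order. The differences of the 45 genes on uninfected 0 h replicate 2 and p53ER vehicle replicate 1 correlated across genes with r = 0.83, and those of all genes with r = 0.69. Genes are not independent replicates, and both sets of differences share the 15 arrays they were taken from.

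The kinase gene Atr lay at -1.72, -2.15 and -0.89 on the 3 arrays that stood apart, in the order of the preceding shares. Smc3 lay at -2.21, -2.28 and -0.80, and Nbn, the ATM-recruiting subunit, at -1.66, -2.28 and -0.64. Prkdc lay at -2.71, -1.52 and -0.41, and Smc1a at -1.53, -1.64 and -0.74. The other Smc1a probe sets averaged -1.55 and -2.25 over the 3 arrays. The clamp subunit Rad1 went the other way, with differences of +0.34, +0.92 and +0.55.

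With a limit of -0.5 on all 3 arrays, chosen after the values were seen, there were 12 repair genes (26.7%, against 7.18% of all genes). They were Atr, Rad17, Chek1, Rad50, Nbn, Smc1a, Smc3, Brca2, Fancm, Blm, Rmi1 and Lig4, from every role. In the main comparison all 12 were positive, with a median of +0.28, and 2 of 12 without p53ER vehicle replicate 1, with a median of -0.15. Since that array helped to choose them, this is a description only. Of the other 33 genes 15 were positive with all arrays and 13 without it, with a median of -0.03 either way. Brightness before scaling was 58.1, 123 and 64.9 on the 3 arrays. The 3'/5' signal ratio of the actin control was 1.08 to 1.10 on them and 1.00 to 1.22 on the others, and that of Gapdh 0.782 to 0.949 and 0.797 to 0.950. The summed signal of the 10 mesenchymal markers was 41610 to 65045 on them and 39949 to 59203 on the others, and of the 7 epithelial markers 219 to 257 and 172 to 306. The part of these measures in the low block was not tested.

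**Figure D4:**
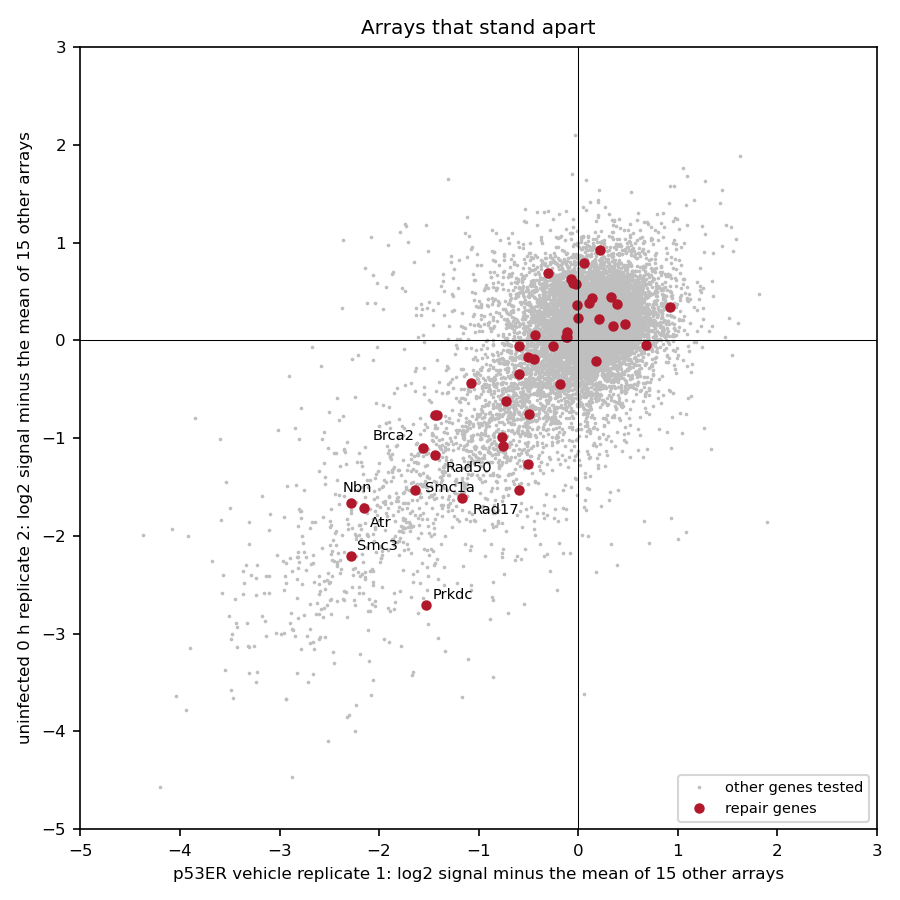
Each point is a gene; the axes give its log2 signal on p53ER vehicle replicate 1 (horizontal) and uninfected 0 h replicate 2 (vertical), each minus the mean of the 15 arrays that did not stand apart. Repair genes (red) reach into the lower left, where Smc3 lies at -2.28 and -2.21, among many other genes (grey; 2 lie outside the axes).

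In uninfected cells, which carry no fusion, 0 of the 45 repair genes passed with 4-OHT against vehicle, and 0% of all genes (limma; at an unadjusted p under 0.05, 0 repair genes and 84 of all genes). Differences ran from -0.32 for Rad17 to +0.36 for Trp53bp1, with 19 positive and a median of -0.02, and 35 of the 45 intervals lay within 2-fold. Trp53bp1 read 6.97, 7.04 and 6.83 with 4-OHT, all above the vehicle arrays at 6.64, 6.43 and 6.70. Its other probe sets gave -0.03, +0.16, +0.31, -0.21 and -0.18 here. Rmi1 had no overlap either, and 2.38% of all genes lay above in this way. No repair gene lay below without overlap, against 1.91% of all genes.

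Whether the 4-OHT response differs between the cell types was tested by the difference of the responses, p53ER minus uninfected. It called 0 of 45 repair genes and 0% of all genes (limma; at an unadjusted p under 0.05, 0 repair genes and 170 of all genes, 1.56%). With the block 0 repair genes and 0.00916% of all genes passed. The median was +0.09, or -0.03 without p53ER vehicle replicate 1. Smc1a had the largest value, +0.77 (SE 0.54, limma adjusted p = 1.00), and Parp1 the lowest, -0.44. Here 19 of the 45 intervals lay within 2-fold, and the others reached beyond it.

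Vehicle against 0 h shows the 4 h in culture without 4-OHT. In p53ER cells 0 of 45 repair genes passed and 0% of all genes (limma; 2 repair genes, 4.44%, and 3.05% of all genes at an unadjusted p under 0.05). There were 11 positive values, with a median of -0.15 against -0.03 over all genes. Each group holds an array that stood apart, and the median was -0.057 without vehicle replicate 1, -0.28 without 0 h replicate 3 and -0.26 without vehicle replicate 2. With all 3 arrays that stood apart left out it was -0.15. Mdc1, the mediator that binds marked H2AX, read 6.48, 6.46 and 5.88 with vehicle and 6.71, 7.13 and 6.88 at 0 h. The groups did not overlap (-0.63, SE 0.18, limma adjusted p = 1.00). Wrn was also lower without overlap (-0.89, SE 0.39), as were Rad54l, Mus81 and Slx4. That makes 5 of 45 (11.1%), against 3.62% of all genes below and 2.4% above, where there was no repair gene.

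In uninfected cells, too, vehicle against 0 h called 0 of 45 repair genes and 0% of all genes (limma; 2 repair genes, 4.44%, and 5.64% of all genes at an unadjusted p under 0.05). There were 23 positive values, 51.1% against 42.3% of all genes, and the median was 0.00. Rad17 (+1.12, SE 0.39) and Prkdc (+1.19, SE 0.54) were the highest, and both were low on uninfected 0 h replicate 2, at 5.81 for Rad17 and 2.55 for Prkdc. Without that array the median of the repair genes was -0.037. Rad17, Smc1a and Palb2 lay above without overlap (4.17% of all genes did), and Mdc1 lay below (7.29% did). Its 6.37, 6.61 and 6.50 with vehicle stood against 6.75, 6.85 and 6.75 at 0 h (-0.29, SE 0.18).

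Against the 0 h arrays, p53ER cells with 4-OHT had 0 of 45 repair genes past the threshold and 0.0183% of all genes (limma; 1 repair gene, 2.22%, and 4.14% of all genes at an unadjusted p under 0.05). With the block, 5 repair genes (11.1%) and 7.25% of all genes had an unadjusted p under 0.05, and 0 repair genes and 0.174% of all genes passed. This comparison shares its 4-OHT arrays with the main one and its 0 h arrays with that of vehicle. The repair gene was Mdc1, at 6.27, 6.25 and 6.22 with 4-OHT and so below every 0 h array (-0.66, SE 0.18, limma adjusted p = 0.681, or 0.264 with the block). Timeless, Rpa2, Chek2, Rad54l and Wrn also lay below without overlap, 6 of 45 with Mdc1 (13.3%, against 6.29% of all genes). Atrip (+0.53, SE 0.32) and Trp53bp1 (+0.19) lay above, 2 of 45 (4.44%, against 4.56%). The median was -0.09 with 14 positive, and -0.26 when the 3 arrays that stood apart were left out.

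Between the cell types without 4-OHT, averaged over 0 h and vehicle, 0 of 45 repair genes differed past the threshold and 0.0183% of all genes (limma; 2 repair genes, 4.44%, and 3.43% of all genes at an unadjusted p under 0.05). For p53ER cells minus uninfected cells, 41 of the 45 intervals lay within 2-fold. Values of 10 of 45 were positive (22.2%, against 49.5% of all genes), with a median of -0.09, or -0.05 without the 3 arrays. Rpa2 (-0.35, SE 0.15) and Rad54l (-0.30, SE 0.13) had the smallest p-values. The 6 p53 activity genes were all positive in this comparison, with a median of +0.70, and 0 passed (limma). The 0 h and vehicle arrays of p53ER cells are thus not shown to be free of p53 activity. Whether the fusion worked without 4-OHT was not tested.

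With 4-OHT in both cell types, 0 of 45 repair genes passed and 0.0733% of all genes (limma; 3 repair genes, 6.67%, against 3.84% of all genes at an unadjusted p under 0.05). None of the arrays that stood apart belongs to these groups. The p53ER arrays lay below the uninfected ones without overlap for 9 of 45 genes (20%, against 5.73% of all genes) and above for 1, Atrip (2.22%, against 5.49%). Clspn also lay below (-0.61, SE 0.30, limma adjusted p = 1.00). The 9 were Topbp1, Chek1, Tipin and Rpa2 of the ATR checkpoint, Mre11a, Nbn, H2afx and Mdc1 of break sensing, and Brca1. Rpa2 read 6.99, 6.97 and 6.92 in p53ER cells and 7.37, 7.66 and 7.95 in uninfected cells (-0.70, SE 0.22, limma adjusted p = 0.816, or 0.318 with the block). Mre11a, the nuclease of the end-binding complex, read 6.86, 6.82 and 6.27 against 7.20, 7.09 and 7.08 (-0.47, SE 0.21). Brca1 read 6.57, 6.54 and 5.95 against 7.16, 6.79 and 6.95 (-0.61, SE 0.29). The median over the repair genes was -0.19, against 0.00 over all genes, and ran from -0.23 to -0.12 when any array of these groups was left out. Of the 45 repair genes 14 were positive (31.1%, against 50.4% of all genes). Among the other repair genes 9 of 43 were positive and the median was -0.14. Without overlap, 3 of them (6.98%) lay below and 2 (4.65%) above, near the shares of all genes.

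Replicate 3 differed from replicates 1 and 2 for 5 of 45 repair genes (11.1%) and for 21.2% of all genes, in a fit with the 6 groups and the replicate number (limma, adjusted p under 0.05). Xrcc6, the Ku70 subunit that binds broken ends, was higher by 0.41 (SE 0.08, limma adjusted p = 0.00199). Its lowest, median and highest levels were 7.74, 8.06 and 8.26 on the 6 replicate 3 arrays and 7.15, 7.67 and 7.78 on the other 12. Replicate 3 was above both others in 5 of 6 groups. The fork protection gene Timeless was higher by 0.48 (SE 0.12, adjusted p = 0.0114), Rpa1 by 0.28 (SE 0.08, adjusted p = 0.0145) and Atrip by 0.50 (SE 0.15, adjusted p = 0.0270), all in the same limma fit. The lowest, median and highest levels of Timeless were 7.17, 7.61 and 7.97 in replicate 3 and 6.50, 7.14 and 7.63 in the others. Those of Rpa1 were 11.08, 11.30 and 11.55 against 10.84, 11.02 and 11.46, and those of Atrip 5.56, 5.97 and 6.39 against 5.05, 5.41 and 6.11. The ranges overlap for each of these genes, and replicate 3 was above both others in 5 of 6 groups. Chek2, the kinase that ATM activates, was lower by that fit, at -0.46 (SE 0.13, adjusted p = 0.0181). Its levels were 5.48, 5.74 and 6.30 in replicate 3 and 5.94, 6.26 and 6.54 in the others, so the ranges overlap.

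Second probe sets gave smaller values, +0.14 for Xrcc6, +0.10 for Timeless and +0.14 for Rpa1. The count of 5 was 2 without uninfected vehicle replicate 3, and was 3 without uninfected 4-OHT replicate 3 or p53ER vehicle replicate 3. Fanci had the lowest value, -0.75 (SE 0.30, limma adjusted p = 0.0977), which holds its p53ER 4-OHT array at 3.86. Other measures also varied with the replicate number, some with overlapping ranges. The Gapdh 3'/5' ratio was 0.860 to 0.950 in replicate 3 and 0.782 to 0.841 in the others. That of actin was 1.00 to 1.13 in replicate 3 and 1.05 to 1.22 in the others, so its ranges overlapped. The trimmed mean before scaling was 47.5 to 73.5 and 58.1 to 148, and 4 of 10 mesenchymal markers were lower past the threshold. All 6 p53 activity genes were higher in replicate 3, 3 of them past the threshold, with a median of +0.66. Of the other tested markers, 1 of 3 epithelial genes and the 1 endothelial gene were lower past the threshold, and of 2 blood genes 1 was higher and 1 lower. The summed mesenchymal signal was 39949 to 50815 in replicate 3 and 41610 to 65045 in the others. Their part in the result was not tested.

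**Figure D5:**
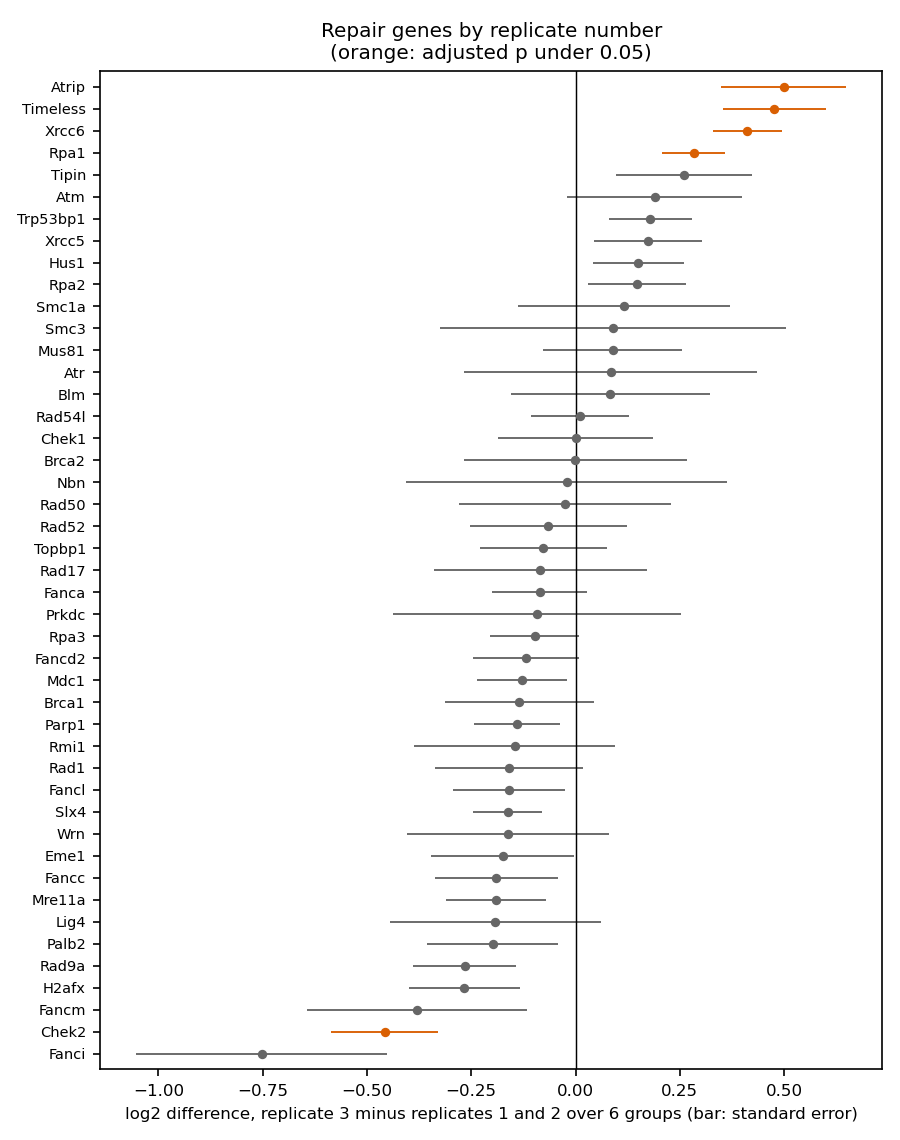
Log2 difference of replicate 3 from the mean of replicates 1 and 2, over the 6 groups, with bars of 1 standard error, for the 45 repair genes in order of size. The 5 in orange passed (limma): Atrip, Timeless, Xrcc6 and Rpa1 to the right and Chek2 to the left.

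RefSeq promoter windows of 300 bases (250 before the start to 50 after it, GRCm38.p6) were at hand for 39 of the 49 genes, 44 windows in all. Letters of the E2F consensus (TTTCCCGC, TTTCGCGC, TTTGCCGC or TTTGGCGC, either strand) occurred in 10 of the 44 (22.7%) and in 2.26% of 32851 windows of all genes. CCAAT (either strand) occurred in 22 (50%), against 37.4%. A pair of consensus p53 half-sites with up to 13 bases between them occurred in 0 of 44 and in 24 of all windows (0.0731%). A match is a run of letters and not a shown site, and no match says only that the letters are not in the window. The windows of Smc1a, which had the largest difference with 4-OHT, and of Xrcc6 and Chek2, of which Xrcc6 had the smallest adjusted p by replicate number and Chek2 was the one lower in replicate 3, are shown 5′ to 3′ on the plus strand, with both kinds of letters in capitals. They lie at chrX:152016178-152016477, chr15:82016119-82016418 and chr5:110839733-110840032.
Smc1a: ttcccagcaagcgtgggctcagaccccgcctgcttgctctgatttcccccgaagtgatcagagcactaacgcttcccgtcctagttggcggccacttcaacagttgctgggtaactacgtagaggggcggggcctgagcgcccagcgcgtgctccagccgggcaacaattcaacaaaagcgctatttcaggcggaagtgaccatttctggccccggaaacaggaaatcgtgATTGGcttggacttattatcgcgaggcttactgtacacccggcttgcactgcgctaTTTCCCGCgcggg
Xrcc6: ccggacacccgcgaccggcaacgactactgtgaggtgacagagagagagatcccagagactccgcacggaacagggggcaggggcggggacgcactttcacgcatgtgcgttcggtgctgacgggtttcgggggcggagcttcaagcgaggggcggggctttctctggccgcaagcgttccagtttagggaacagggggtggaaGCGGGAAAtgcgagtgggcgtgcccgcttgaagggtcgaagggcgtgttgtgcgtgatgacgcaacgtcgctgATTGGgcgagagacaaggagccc
Chek2: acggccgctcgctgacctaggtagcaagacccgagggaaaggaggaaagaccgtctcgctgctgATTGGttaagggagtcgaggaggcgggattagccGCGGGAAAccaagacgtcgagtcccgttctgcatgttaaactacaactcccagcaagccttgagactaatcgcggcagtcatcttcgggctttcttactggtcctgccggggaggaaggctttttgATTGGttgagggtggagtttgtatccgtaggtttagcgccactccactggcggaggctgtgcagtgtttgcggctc
In the Smc1a window the E2F letters lie near the end, after the start site, and CCAAT lies on the other strand before it. The Xrcc6 window holds 1 run of each kind, and the Chek2 window 1 E2F run and 2 of CCAAT, all read from the other strand.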

How the data were processed

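RNA of 18 samples was measured on Affymetrix mouse arrays, 1 array a sample. The authors deposited linear MAS5 signal intensity for 45101 probe sets, per the submitters' processing notes; the MAS5 version and a genome build are not given in the sources used here. Signals were multiplied so that every array had the same 2% trimmed mean, 82.7, an offset of 4.13 was added and log2 was taken. Separately, the number of arrays limits precision. Of the probe sets, 34958 carried 1 gene in the platform annotation, 932 several and 9211 none; of the first, names were updated through RefSeq by Entrez ID. A gene was read by its brightest probe set, and the brightest 60% of genes by mean over all arrays were tested. One fit of all 6 groups used limma 3.58.1 in R 4.3.3 (trend and robust empirical Bayes, Benjamini-Hochberg adjustment over 10917 genes). It was also run on simulated data with independent noise and no outlying arrays, so that run does not cover the arrays that stood apart.

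The members and lists were chosen with earlier results of these data known. Any member could be named; levels were given for members past the threshold (as lowest, median and highest where groups hold over 5 arrays), for those with an unadjusted p under 0.05 and groups that did not overlap in the main comparison, and for the largest difference of each role. Levels of other members were added after their values were seen. Same-numbered replicates deviated together in p53ER 4-OHT against vehicle (correlations of 0.21 to 0.45) and in uninfected 4-OHT against vehicle (0.31 to 0.62). They also did in p53ER 4-OHT against 0 h (0.27 to 0.47) and between the cell types with 4-OHT (0.17 to 0.47). The other group comparisons did not meet this check. Their lowest correlations were 0.094 for the difference of the responses and -0.34 between the cell types without 4-OHT. For vehicle against 0 h they were -0.085 in p53ER cells and 0.052 in uninfected cells. The pairing comes from these correlations and not from the labels. Alternatives were other scaling, offsets and filters, a replicate block, array weights and arrays left out.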

Additional observations from a re-analysis of the deposited data

How the results depend on the processing

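In the 8 comparisons between groups the count of repair genes past the threshold was 0 under every alternative run, which says little of stability since few genes of any kind passed. With the replicate number as a block, for which the pairing check is given with the methods, it was 0 as well, so the block changed no call of a repair gene there. The comparison by replicate number already holds that term. The count of repair genes that differed by replicate number, 5 of 45, was 3 with the stricter filter on dim genes, where 30 repair genes were tested, and 2 to 5 when 1 array was left out, where 3 of 18 fits gave a count more than 1.5 times off. With the 3 arrays that stood apart left out, Atr with 4-OHT against vehicle in p53ER cells was -0.21 and Prkdc -0.045, and -0.23 and -0.11 with the replicate block as well, where all arrays gave +0.54 and +0.50. Leaving out 1 array gave -0.21 to +1.09 for Atr and -0.045 to +0.81 for Prkdc. The median over the repair genes in that comparison, +0.12, was -0.06 without the 3 arrays and -0.05 with the stricter filter. The sign turned without p53ER vehicle replicate 1, and also with the stricter filter, which keeps all 18 arrays. The stricter filter leaves the difference of each gene as it was and takes the median over the 30 brighter repair genes. The cause of the turn without p53ER vehicle replicate 1 was not tested. The median for p53ER 4-OHT against 0 h, -0.09, ran from -0.26 to -0.022 when 1 array was left out, and that for vehicle against 0 h, -0.15, from -0.28 to -0.057. Of 243 values of single genes under the alternatives, 228 kept their direction and their side of the threshold.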
